A study of Homo sapiens with 6 samples.

Results

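The genes described here build, activate, recycle and anchor the actin cytoskeleton, with vimentin (VIM) and the microtubule regulator stathmin (STMN1) added. The list holds 45 genes named by function, out of 19775 genes with a probe set of their own on the array, and each gene was read from a probe set assigned to it alone, the one whose mean across the 6 arrays was highest. Of the 45, 43 had such a probe set. ACTR2, the ARP2 subunit, and FLNA, the crosslinker filamin A, had none and are not analysed here. PFN2, the second profilin, lay between 2.76 and 3.40 on the log2 scale, below the filter of 3.66 (the median of all values), and enters no comparison. The other 42 were above the filter on all 6 arrays, the lowest value being 4.85, so none entered through a late rise alone.

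Expression was measured in NB4, a human acute promyelocytic leukaemia cell line carrying the PML-RARA fusion. All cells grew in medium with fetal bovine serum, either untreated (0 h) or for 4, 12, 24, 48 or 72 h in all-trans retinoic acid (ATRA) at 1e-06 M. ATRA is a retinoic acid receptor ligand that drives such cells toward neutrophil maturation. Each time had 1 array, no vehicle control is labelled, and exposure to ATRA cannot be told apart from hours in culture.

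Actin monomers join into filaments, and new filaments begin where a nucleator is switched on. The Arp2/3 complex starts branches on existing filaments once WASP or the WAVE complex binds it, while formins and Ena/VASP proteins lengthen filaments. Cofilins, gelsolins and coronins take filaments apart, profilin and the thymosins hold monomers, and ERM proteins tie filaments to the membrane. Neutrophils crawl and engulf particles with this machinery, and inherited loss of WAS, NCKAP1L, ARPC1B or CORO1A causes immunodeficiency.

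Probe set values were deposited on the log2 scale, with array medians of 3.64 to 3.69. The spiked bioC control stood at 8.01 and 8.11 on the 0 and 12 h arrays and at 6.88 to 7.17 on the other arrays. The 3' minus 5' difference of the beta-actin control probe sets, a sign of RNA quality, lay between 0.13 and 0.26. That of GAPDH lay between 0.02 and 0.21, with 0.06 untreated and the highest value at 72 h. Of the 7 measured promyelocyte markers 6 passed the filter, with ELANE below it on every array and MS4A3 below it at 72 h. The mean of the 7 went from 8.39 untreated to 7.03 at 72 h. MPO went from 12.90 to 10.92, CTSG from 6.83 to 4.40 and MS4A3 from 9.02 to 3.39. AZU1 changed little, from 9.32 to 9.05, while PRTN3 went up from 10.76 to 11.07 and CST3 from 7.02 to 7.47. The part that the change of these markers plays in the trends below was not tested. None of 6 monocyte and macrophage markers reached the filter, and the mean levels of the lists for erythroid, megakaryocytic, B, T and NK cells and for fibroblasts or epithelium stayed between 3.85 and 5.01. Single genes of these lists moved both ways, CD79A from 5.36 to 6.82, NKG7 from 8.35 to 9.11, CD79B from 6.04 to 4.65 and EPCAM from 5.86 to 4.42. Shifting the arrays to equal spiked controls moves all genes at 72 h by 0.66 (median of all controls) or -0.56 (mean of those without bioC). These shifts thus differ in median or mean as well as in bioC. A cyclic loess moves the median of all genes from -0.06 to 0.04, so directions below are relative to the arrays' common level.

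Some genes of the list rose during ATRA and others fell, among relatives of one complex too. A straight line over the 6 ordered times was fitted to all 13594 genes kept by the filter with limma, and the threshold for a call was 0.05 after Benjamini-Hochberg adjustment over all of them. A call was made for 18 of the 42 genes, where 18.2% of all genes were called in either direction. By direction, 14 rose (33.3%; 8.33% of all genes) and 4 fell (9.52%; 9.86% of all genes), the second share being near the background. The list was chosen with earlier results of these data known, so these shares are a description. The 14 were ARPC1B, ARPC3, ARPC5, ACTR3, WAS, WIPF1, NCKAP1L, CYFIP2, VASP, EVL, PFN1, CORO1A, TMSB10 and MYO1F. The 4 that fell were VIM, DIAPH1, DSTN and MSN. Nearly all the listed genes are well expressed, and among genes reaching percentile 75 of all values (5.74) 16 of 41 rose against 12.6% of 8628 genes, and 4 fell against 16.5%. The rising count was 9 without the untreated array (6.38% of all genes in that fit) and also 9 without the 72 h array (3.24%). The falling count was 1 without the untreated array (3.94%) and 3 without the 72 h array (1.98%).

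**Figure D1:**
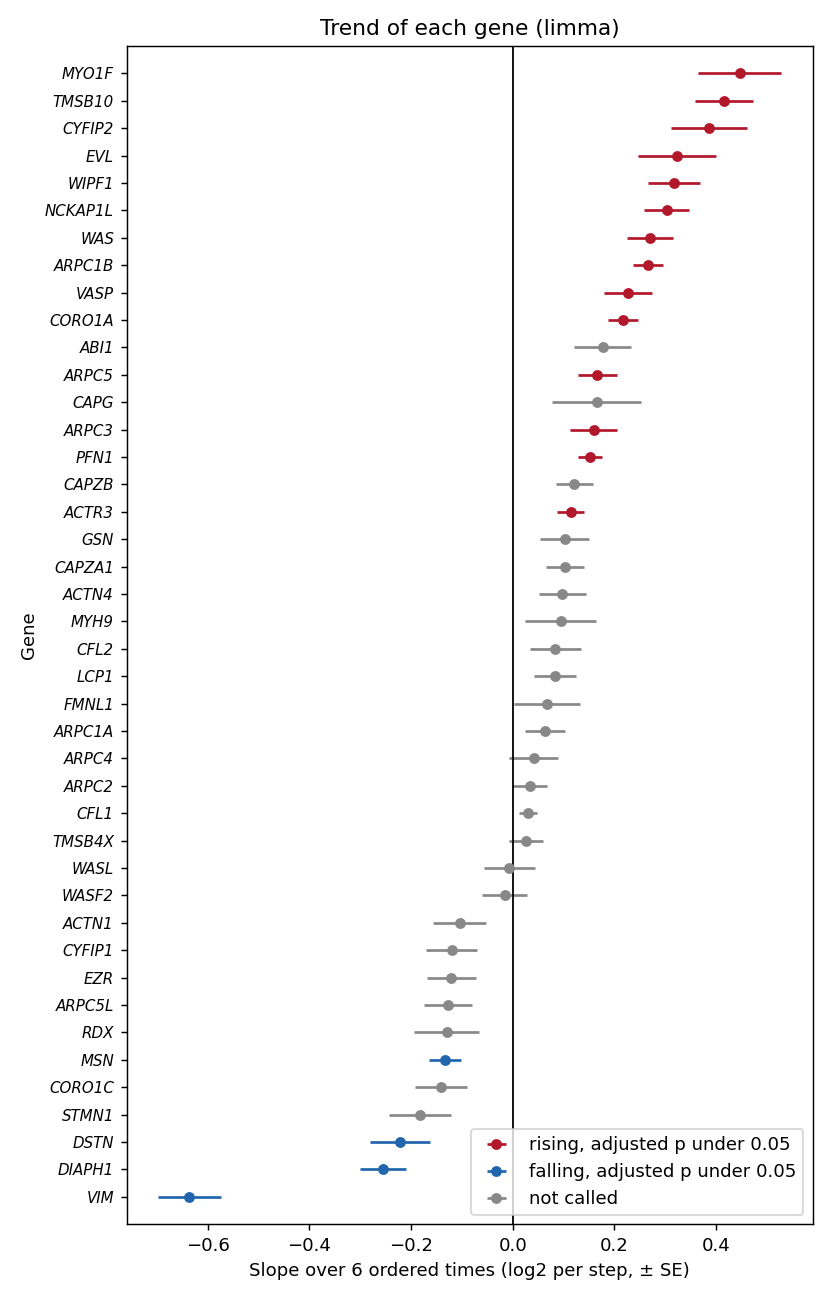
Slope of each of the 42 genes over the 6 ordered times (log2 per step, points) with its standard error (bars), coloured by the limma call at an adjusted p under 0.05. MYO1F has the steepest rise at 0.45 per step and VIM the steepest fall at -0.64, and 24 genes carry no call.

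Measured as the difference from untreated cells, 1 of the 42 genes was 2-fold or more higher at 4 h (1.74% of all genes) and also 1 at 12 h (2.3%), MYO1F at both times. The count grew to 2 (3.35%) by 24 h, then 7 (5.83%) by 48 h and 10 (10.9%) by 72 h. Genes 2-fold or more lower numbered 0 (1.81%), 1 (1.93%), 2 (1.99%), 2 (4.49%) and 4 (12.2%) at the same times. The median difference moved from 0.00 at 4 h through 0.07, 0.18 and 0.30 to 0.42 at 72 h, beside 0.03, -0.06, -0.01, -0.02 and -0.06 over all genes. With the shift on controls without bioC the 72 h median was -0.15, and that of all genes -0.62. These differences compare 1 array with 1 array, without replicates to check them.

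**Figure D2:**
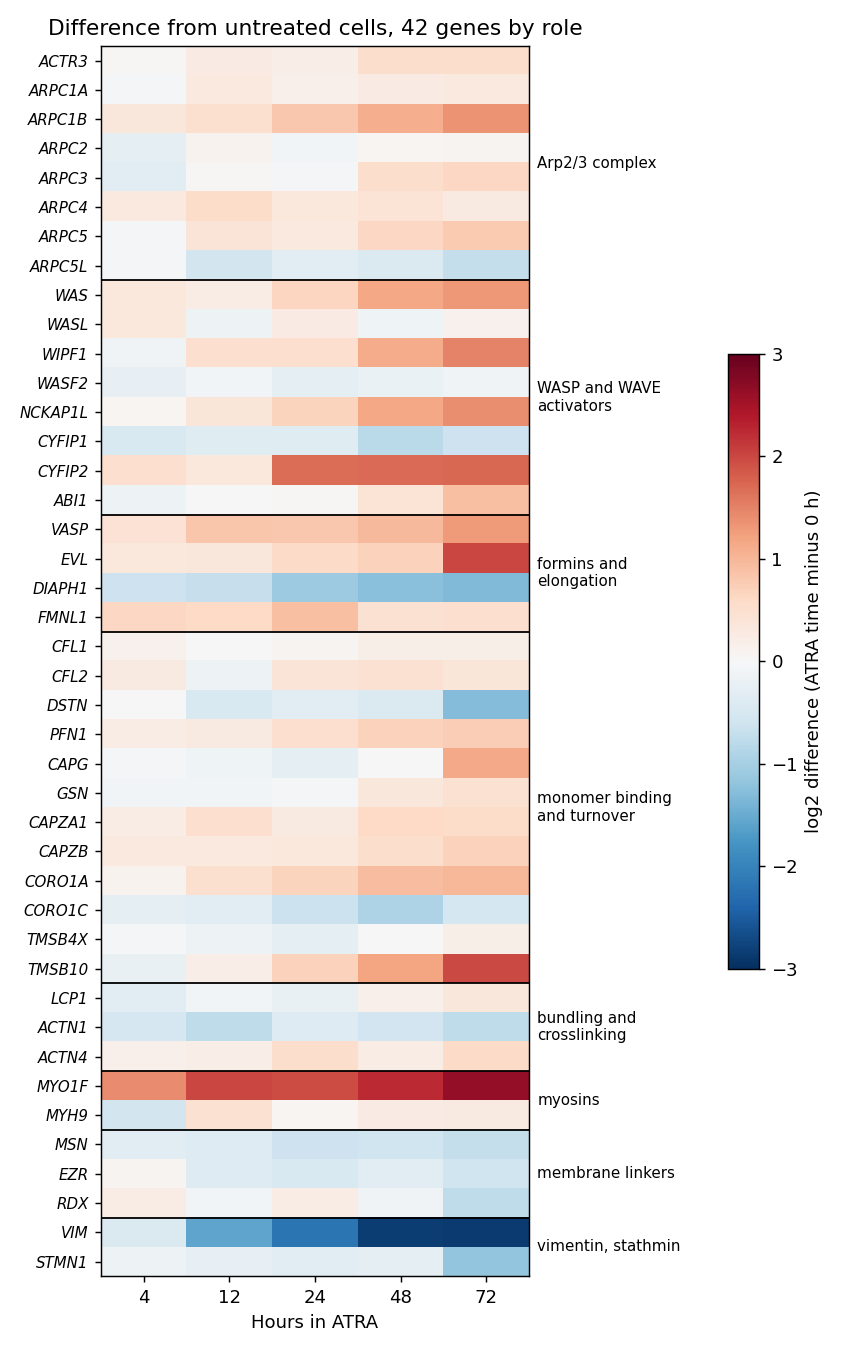
Difference from the untreated array (log2, colour) for the 42 genes, in rows grouped by role, at 5 times in ATRA, in columns. MYO1F is high from 4 h (1.41) and VIM low from 12 h (-1.57), while EVL, CAPG, DSTN and STMN1 pass 2-fold only at 72 h.

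Promoter sequences were available for 41 of the 45 genes, 71 windows of 300 bases in all, from 250 bases before to 50 after each start (RefSeq, GRCh38.p14). They were searched on both strands for the CArG box bound by SRF, a factor that drives many actin genes, for the PU.1 sequence GAGGAAGT, since PU.1 is a master factor of myeloid cells, and for TATAAA. The PU.1 letters were in windows of 5 of the 41 genes (12.2%; 3.15% of all genes with promoters) and in 5 of 71 windows (7.04%; 2.59% of all). The CArG box was in 2 of 41 (4.88%; 1.6%) and in 2.82% of windows (1.29% of all). TATAAA was in 4 of 41 (9.76%; 14% of all genes) and in 5.63% of windows (11.5% of all). The fifth PU.1 match, in FMNL1, lies past the start site. A match is a description of letters and shows no binding. TATAAA matched in EVL, which rose, and in GSN, LCP1 and ACTN1, which had no call, and these are not printed. The stretches below are the PU.1 and CArG matches that start before the gene, 30 bases each with the matched letters in capitals. Their genes moved in different ways: WIPF1 rose, while ARPC5L, GSN, LCP1 and ACTN1 had no call and FLNA no probe set.
WIPF1 (chr2:174634600-174634629, minus strand, match starting 13 bases before the start site): gaaggtgcagtGAGGAAGTataatgtcaca
ARPC5L (chr9:124861944-124861973, plus strand, 175 bases before): tccgagggaaaGAGGAAGTaggcggggctg
GSN (chr9:121285947-121285976, plus strand, 147 bases before): aatagtttcctGAGGAAGTgttgggtttta
LCP1 (chr13:46182352-46182381, minus strand, 193 bases before): aaaaaaaaaaaGAGGAAGTggtaggaggtg
ACTN1 (chr14:68977718-68977747, minus strand, CArG box, 171 bases before): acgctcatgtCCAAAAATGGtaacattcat
FLNA (chrX:154374709-154374738, minus strand, CArG box, 94 bases before): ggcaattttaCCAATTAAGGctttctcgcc

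In the Arp2/3 complex 4 of 8 measured subunits rose and none fell, with a median 72 h difference of 0.41 that turns to -0.15 with the shift on controls without bioC. ARPC1B, the subunit 1 form abundant in blood cells, was at 9.79 in untreated cells and at 10.13, 10.28, 10.59, 10.88 and 11.14 at 4, 12, 24, 48 and 72 h. It was higher at each later time than at the one before, and 2.54-fold higher at 72 h. The fitted trend was 0.27 ± 0.03 log2 per step (± SE, limma adjusted p = 0.00205), which passed in each fit that left out 1 array.

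Its relative ARPC1A was at 9.00 untreated and at 8.97, 9.31, 9.17, 9.26 and 9.30 later, with no call (limma adjusted p = 0.323). ARPC5, a subunit at the complex's edge, read 9.56, 9.51, 9.94, 9.85, 10.18 and 10.34 from 0 to 72 h, a 1.72-fold difference. The slope of ARPC5 was 0.17 ± 0.04 per step (limma adjusted p = 0.0233). Its relative ARPC5L went the other way, from 9.02 through 8.99, 8.47, 8.71 and 8.59 to 8.32, with no call on this probe set (limma adjusted p = 0.102). All 4 ARPC5L probe sets were lower at 72 h, by -0.71 to -1.76, and 1 of them was called falling.

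The core subunit ACTR3 (ARP3) read 11.12, 11.17, 11.38, 11.33, 11.65 and 11.65, a slope of 0.11 ± 0.03 (limma adjusted p = 0.0258). ARPC3 dipped from 10.98 to 10.65 at 4 h and was at 11.00, 10.95, 11.49 and 11.59 later (limma adjusted p = 0.0476). ARPC2 and ARPC4, which form the complex's scaffold, ended 0.07 and 0.27 above untreated without a call, and ARPC4 was highest at 12 h. Of the kept probe sets 1 of 5 for ACTR3 and 1 of 3 for ARPC5 were called, and with the mean of all probe sets neither passed (limma adjusted p = 0.0927 and 0.105). These modest rises also rest on few arrays. Without the 4, 48 or 72 h array ACTR3, ARPC3 and ARPC5 each lost the call, as ACTR3 and ARPC5 did without the untreated and ARPC3 without the 12 h array, with adjusted p up to 0.0915, 0.249 and 0.121.

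The activators of Arp2/3 included 4 rising genes of 8, and all 4 were 2-fold or more higher at 48 and at 72 h. WAS, the blood-cell activator WASP, was at 8.53 untreated and at 8.85, 8.76, 9.18, 9.68 and 9.84 in ATRA. WIPF1, the WASP-binding protein that keeps WASP stable, read 8.31, 8.20, 8.81, 8.81, 9.42 and 9.80. NCKAP1L, the blood-cell scaffold of the WAVE complex (HEM1), read 7.95, 8.01, 8.32, 8.62, 9.11 and 9.35. In each of these genes every array from 12 h on was above the untreated one, and 72 h was highest. The slopes were 0.27 ± 0.05 for WAS, 0.32 ± 0.05 for WIPF1 and 0.30 ± 0.04 for NCKAP1L (limma adjusted p = 0.00824, 0.00736 and 0.00482), and all 3 passed whichever array was left out. Of the kept probe sets 2 of 2, 3 of 4 and 3 of 3 were called rising. WAS did not pass with the shift on all controls (limma adjusted p = 0.0633) or within the 4, 24, 48 and 72 h arrays (0.0711).

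CYFIP2, a WAVE subunit, was at 7.51, 8.01 and 7.82 at 0, 4 and 12 h. It was at 9.19, 9.20 and 9.23 at 24, 48 and 72 h. The rise between 12 and 24 h was 1.37 on this probe set. The second kept CYFIP2 probe set, also called rising, went up gradually, at 5.70, 5.88, 6.55, 7.00, 7.41 and 7.22. On the first, the 72 h level was 3.29-fold the untreated one (slope 0.39 ± 0.07, limma adjusted p = 0.0135). Its relative CYFIP1 fell short of a call, at 8.70 untreated and 8.25, 8.34, 8.33, 7.88 and 8.08 later (limma adjusted p = 0.137). Without the untreated array CYFIP2 had an adjusted p of 0.0619.

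The widely expressed relatives gave no calls. WASL (N-WASP) was low throughout, at 5.00, 5.31, 4.85, 5.24, 4.88 and 5.13, and WASF2 (WAVE2) ranged from 8.39 to 8.69. The 3 WASF2 probe sets did not share a direction of slope. ABI1, the WAVE adaptor, stayed between 7.61 and 7.78 to 24 h and reached 8.17 and 8.66 at 48 and 72 h (limma adjusted p = 0.0651).

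Of the 4 elongation factors 2 rose and 1 fell. VASP, which feeds profilin-actin to growing ends, read 7.04, 7.47, 7.86, 7.85, 8.00 and 8.31, so its difference came mostly in the first 12 h (slope 0.23 ± 0.05, limma adjusted p = 0.0172). EVL, of the same Ena/VASP family, stayed between 8.11 and 8.79 to 48 h and was at 10.11 at 72 h, 3.99-fold above untreated (slope 0.32 ± 0.08, limma adjusted p = 0.0253). The last array alone stands apart for EVL, and both of its probe sets show that step. The formin DIAPH1 was at 10.08 untreated and at 9.47, 9.40, 8.99, 8.83 and 8.76, lower at each time than at the one before and 2.49-fold lower at 72 h (slope -0.25 ± 0.05, limma adjusted p = 0.01).

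FMNL1, a formin of blood cells, went from 6.19 to 6.81, 6.80 and 7.10 and back to 6.65 and 6.70, with no call (limma adjusted p = 0.542). Every ATRA array was above untreated for FMNL1, with the highest at 24 h, a shape that a straight line does not test. EVL was not called without the untreated, 4, 12 or 72 h array (adjusted p up to 0.137), VASP without the untreated or 72 h array (up to 0.105) and DIAPH1 without the untreated array (0.0694). With the shift on all controls VASP and DIAPH1 did not pass (limma adjusted p = 0.124 and 0.681), nor did VASP with that without bioC (0.11).

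**Figure D3:**
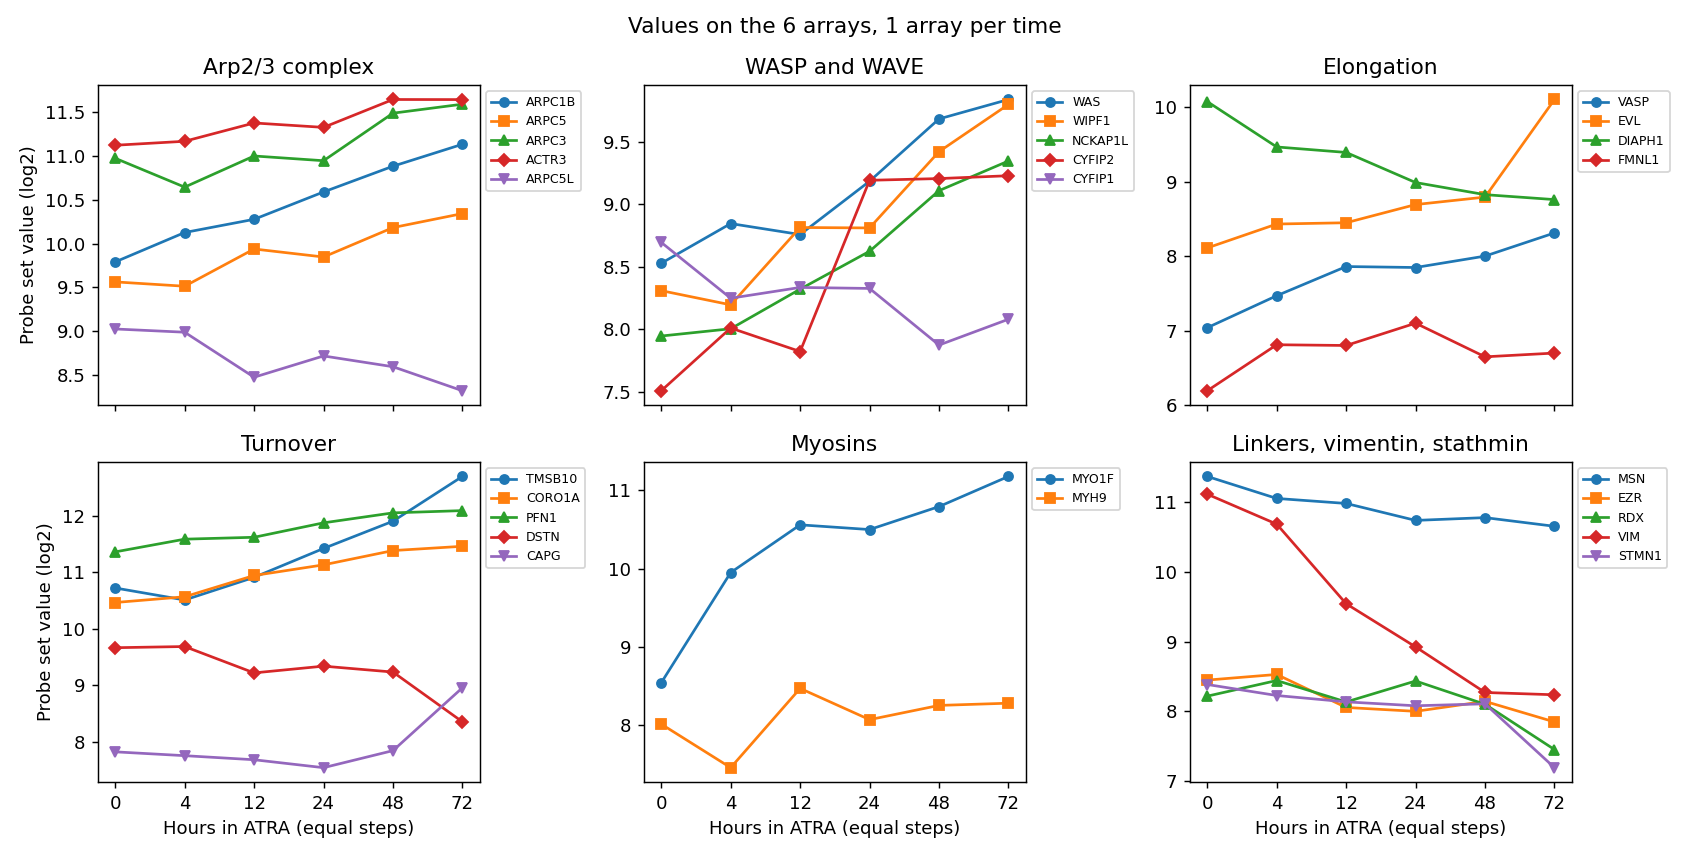
Probe set values (log2, vertical axes) on the 6 arrays, 1 per time, for genes in 6 role panels, with times drawn at equal steps. The CYFIP2 probe set drawn steps up between 12 and 24 h, which its second probe set does not, EVL and CAPG step up between 48 and 72 h, and heights of different genes are not comparable because each has its own probe set.

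Among the 12 measured genes of monomer binding and filament turnover 3 rose and 1 fell. TMSB10, a thymosin that binds actin monomers, was at 10.72 untreated, 10.51 at 4 h, and 10.91, 11.42, 11.90 and 12.69 at 12, 24, 48 and 72 h. It increased at every step after 4 h and ended 3.93-fold higher, with a slope of 0.42 ± 0.06 (limma adjusted p = 0.00438). TMSB4X, the main thymosin of most cells, read 12.66, 12.63, 12.50, 12.37, 12.68 and 12.84 with no call (limma adjusted p = 0.662). Values near 13 approach the highest of the whole table, 13.6, where an array reads differences least well, and the part this plays for TMSB4X was not tested.

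CORO1A, the blood-cell coronin, rose from 10.46 through 10.56, 10.94, 11.13 and 11.38 to 11.46 (slope 0.22 ± 0.03, limma adjusted p = 0.00377). PFN1, profilin 1, which charges actin monomers for growth, read 11.36, 11.58, 11.62, 11.87, 12.05 and 12.09 (slope 0.15 ± 0.02, limma adjusted p = 0.00652). Both rose at each time over the one before, by 1.99- and 1.66-fold in all, and passed whichever array was left out. Neither passed with the shift on all controls (limma adjusted p = 0.0934 for CORO1A and 0.195 for PFN1), with that without bioC (0.105 and 0.309) or within the 4, 24, 48 and 72 h arrays (0.058 and 0.0891). CORO1C, the widely expressed coronin, went from 9.58 to 8.65 at 48 h and 9.04 at 72 h, through 9.28, 9.28 and 8.93, with no call (limma adjusted p = 0.0948). The second CORO1C probe set was 1.26 lower at 72 h (a difference of -1.26) and was called falling in a fit over all probe sets (limma adjusted p = 0.00747).

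The filament-severing proteins split. CFL1, cofilin 1, stayed between 12.78 and 12.95 over all arrays (12.78, 12.90, 12.80, 12.86, 12.95 and 12.95). DSTN, or destrin, a cofilin relative, read 9.66, 9.68, 9.22, 9.34, 9.23 and 8.35, a 2.48-fold difference that came mainly in the last interval (slope -0.22 ± 0.06, limma adjusted p = 0.0361). Both kept DSTN probe sets were called falling, though the call was lost without the untreated, 4, 12 or 72 h array (adjusted p up to 0.26). CFL2, the muscle cofilin, was low at 5.49, 5.75, 5.33, 5.87, 5.94 and 5.86, and its 2 kept probe sets ended in opposite directions.

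CAPG, which caps filament ends and is abundant in macrophages, was at 7.82, 7.75, 7.68, 7.54 and 7.84 to 48 h and at 8.95 at 72 h, 2.19-fold above untreated without a call (limma adjusted p = 0.234). Only the 72 h array is high for CAPG. GSN, gelsolin, which severs and caps, read 8.43, 8.34, 8.35, 8.36, 8.77 and 8.89 (limma adjusted p = 0.181). The 2 subunits of the capping protein, CAPZA1 and CAPZB, ended 0.54 and 0.70 above untreated and missed the threshold (limma adjusted p = 0.0969 and 0.0541).

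No bundling or crosslinking gene was called among the 3 measured. LCP1, the leukocyte bundler L-plastin, ranged from 10.94 to 11.58 with its highest value at 72 h (limma adjusted p = 0.206). The alpha-actinins parted: ACTN1 read 9.84, 9.35, 9.08, 9.46, 9.27 and 9.08, and ACTN4 8.23, 8.38, 8.44, 8.75, 8.46 and 8.81. Every ATRA array was below untreated for ACTN1 and above it for ACTN4, with limma adjusted p of 0.216 and 0.184. In the fit over all probe sets above the filter, 2 of the 4 for ACTN1 were called falling. Their 72 h differences were -1.61 and -1.11 (limma adjusted p = 0.0176 and 0.0268).

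MYO1F, a membrane-bound class I myosin of leukocytes, had the largest rise in the list and the earliest. It was at 8.54 untreated and at 9.95, 10.56, 10.50, 10.79 and 11.18 at 4, 12, 24, 48 and 72 h, 6.2-fold higher at the end. All 5 ATRA arrays lie more than 2-fold above the untreated one, and 423rd place of 13594 is where its 72 h difference ranks from the top. The slope was 0.45 ± 0.08 per step (limma adjusted p = 0.0117), and it passed whichever array was left out. MYH9, the heavy chain of non-muscle myosin IIA, read 8.01, 7.46, 8.47, 8.07, 8.25 and 8.28 with no call (limma adjusted p = 0.402). Its lowest value, at 4 h, and its highest, at 12 h, fall on arrays with bioC at 7.00 and 8.11. With bioC as a covariate the MYH9 slope was 0.19 (limma adjusted p = 0.0601), and within the 4, 24, 48 and 72 h arrays it was 0.22 (limma adjusted p = 0.105).

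The 3 ERM linkers were all lower at 72 h, by -0.60 (EZR), -0.72 (MSN) and -0.77 (RDX), though the EZR difference turns positive with the shift on all controls. MSN, moesin, the ERM protein of leukocytes, read 11.37, 11.06, 10.98, 10.74, 10.78 and 10.66, and each ATRA array was below untreated (slope -0.13 ± 0.03, limma adjusted p = 0.0239). MSN was not called without the untreated or the 72 h array (adjusted p up to 0.168) or with the bioC level as a covariate (0.0664). EZR, ezrin, read 8.45, 8.53, 8.05, 8.00, 8.14 and 7.85 (limma adjusted p = 0.123), and 3 of its 5 probe sets were called falling. On the probe set used, RDX, radixin, read 8.22, 8.44, 8.13, 8.43 and 8.10 to 48 h and 7.45 at 72 h (limma adjusted p = 0.209). Its other kept probe sets were below untreated on every ATRA array. The lower of them went from 4.52 through 4.03, 4.15, 4.15 and 3.62 to 3.39, near the filter, and was called falling (limma adjusted p = 0.0313). The other went from 6.56 to 5.86 at 48 h and 5.43 at 72 h with no call (limma adjusted p = 0.067).

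VIM, vimentin, the intermediate filament of mesenchymal and many blood cells, had the largest fall in the list. It was at 11.12 untreated and at 10.69, 9.54, 8.92, 8.27 and 8.24 at 4, 12, 24, 48 and 72 h. Each array was below the one before, the steepest interval being 4 to 12 h with a step of -1.14, and the level at 72 h hardly differed from that at 48 h. The total was 7.36-fold, rank 55 from the bottom of 13594 genes, with a slope of -0.64 ± 0.06 (limma adjusted p = 0.0012, and 0.00062 to 0.00992 with each array left out). The second VIM probe set lay below the filter on all arrays. STMN1, stathmin, which destabilises microtubules and is abundant in dividing cells, read 8.38, 8.23, 8.13, 8.08 and 8.11 to 48 h and 7.19 at 72 h, 2.29-fold lower without a call (limma adjusted p = 0.0785).

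The genes therefore differed in when they passed 2-fold, read from single arrays on the scale as deposited. MYO1F passed 2-fold by 4 h and VIM by 12 h. CYFIP2 and DIAPH1 followed by 24 h, and ARPC1B, WAS, WIPF1, NCKAP1L and TMSB10 by 48 h. VASP, EVL, CAPG, DSTN and STMN1 passed it only at 72 h, which is a single array. For VASP this was no late step, since it was already 0.82 above untreated at 12 h and 0.96 at 48 h. From 48 to 72 h EVL rose by 1.31 and CAPG by 1.11, the 2 genes of the list past 2-fold in that interval (4.74% of all genes), and none was 2-fold lower (2.14%). DSTN and STMN1 differed by -0.88 and -0.92.

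The arrays at 4, 24, 48 and 72 h had bioC between 6.88 and 7.17. A trend fitted within them called 5 rising (2.2% of all genes), namely ARPC1B, WIPF1, NCKAP1L, TMSB10 and MYO1F, and 1 falling (0.942%), VIM. The adjusted p of these 6 lay between 0.0216 and 0.0498. With the bioC level of each array as a covariate 12 rose (4.94%) and 4 fell (9.57%), EVL, ARPC3 and MSN no longer passing and ARPC5L then falling.

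Related genes were compared by the difference of their changes from untreated, in which any shift common to an array cancels. Of 15 pairs, chosen with earlier results of these data known, 14 had both genes above the filter. Of the 14, 8 had changes that differed by 2-fold or more at 72 h, a description without a test. The share among pairs of genes in general was not computed. Single genes differed widely at 72 h, from -1.50 to 1.95 between percentiles 5 and 95 of all genes. CYFIP1 minus CYFIP2 stood furthest out, at -0.95, -0.67, -2.05, -2.51 and -2.33 from 4 to 72 h, so the ratio of the 2 WAVE subunits moved 5.03-fold. TMSB4X minus TMSB10 went 0.19, -0.35, -0.98, -1.16 and -1.79. CORO1A minus CORO1C went 0.40, 0.78, 1.32, 1.85 and 1.53. In each of these pairs the gene that gained was the one called rising. Both readings come from the same values, so this adds no support.

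ARPC5 minus ARPC5L reached 1.49, CFL1 minus DSTN 1.48, WAS minus WASL 1.17, ACTN1 minus ACTN4 -1.34 and ARPC1A minus ARPC1B -1.05 at 72 h. ARPC1A minus ARPC1B, WAS minus WASL, CFL1 minus DSTN and ACTN1 minus ACTN4 kept 1 sign at all 5 times. The remaining pairs ended closer together: VASP minus EVL at -0.72, CAPG minus GSN at 0.67, CFL1 minus CFL2 at -0.20 and the 3 ERM pairs between -0.05 and 0.17. CFL1, like TMSB4X, read near the top of the scale, and the part this plays in the pairs that hold them, 1 of each being among the 8, was not tested. PFN1 and PFN2 could not be compared.

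**Figure D4:**
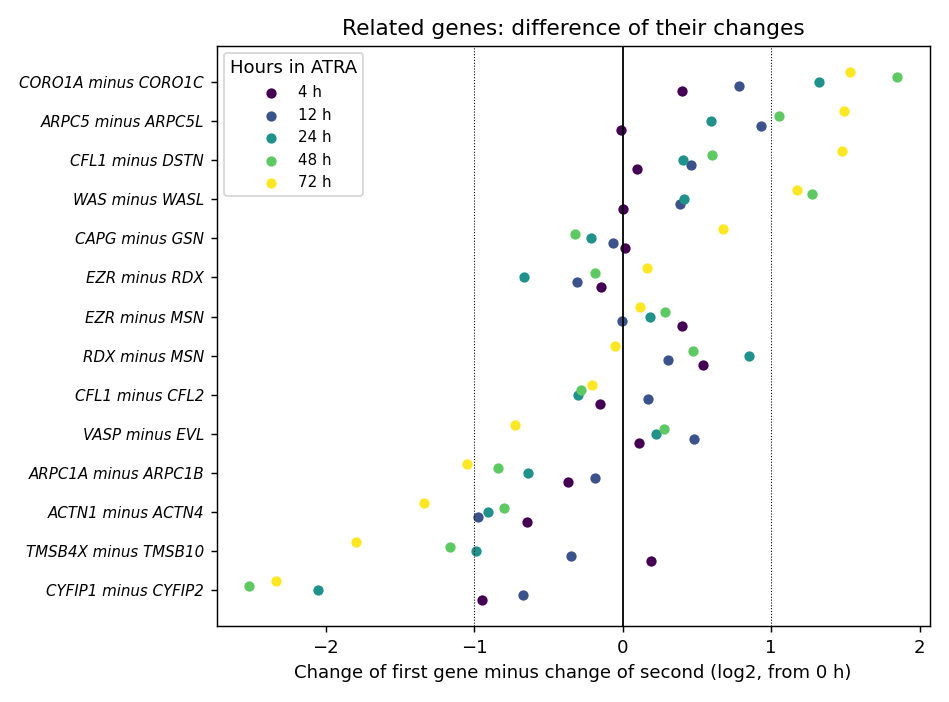
Change of the first gene minus change of the second, each from 0 h (log2), for 14 pairs of related genes at 5 times in ATRA (coloured points), with dotted lines at 2-fold. CYFIP1 minus CYFIP2 reaches -2.51 at 48 h, and 8 pairs lie past 2-fold at 72 h.

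Other cytoskeleton genes were read from further lists by function, with the same call over all genes (8.33% rising, 9.86% falling). These lists too were chosen with earlier results of these data known. Other nucleators and WAVE or WASH subunits gave 1 rising (WASHC3, 1.61) and 1 falling (the formin INF2, -2.63) of 13, while FMNL2 (1.86) and WASHC4 (1.65) had no call.

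Further filament-binding genes gave 5 rising and 3 falling of 25. LSP1, a leukocyte actin-binding protein, was at 4.93 untreated and 10.82 at 72 h, a difference of 5.89 (slope 1.27 ± 0.10, limma adjusted p = 0.000503), and COTL1, a coactosin that binds filaments, differed by 2.44 and CORO1B by 2.70. FSCN1, the bundler fascin, fell from 9.38 to 5.83 (slope -0.68 ± 0.05, limma adjusted p = 0.000503). Adhesion linkers gave 4 rising and 1 falling of 12, with 72 h differences of 3.31 for paxillin (PXN), 1.69 for FERMT3 and -1.64 for FERMT1. PSTPIP2, counted among the 4, lay between 2.55 and 2.84 to 24 h, below the filter, and passed it only through the 48 and 72 h arrays (4.75 and 6.18).

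Of 11 myosin chains 1 rose, and none of MYL12A (1.06), MYO9B (1.02), MYO9A (-0.94) and MYH10 (-0.80), the largest in size, was called. Of 17 tubulins, lamins and other filament genes 7 fell and 1 rose: TUBB6 (-2.65), MAP4 (-1.58) and TUBB4B (-1.53) fell and TUBA1A (2.28) rose. Actin itself, ACTB, went from 13.32 to 13.43 with no call (limma adjusted p = 0.679), close to the top of the scale, and ACTA2 differed by 1.12 at 72 h without a call. No gene of the SRF pathway was called among 5, SRF differing by -0.30, its coactivator MRTFA by 1.38, ELK4 by 0.66 and ELK1 by 0.14.

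Scaling decides the direction of the small differences at 72 h. Of all genes 2-fold or more from untreated at 72 h, 47.2% were higher as deposited, 59.6% after cyclic loess, 86.7% with the shift on all controls and 19.1% with the shift without bioC. Of the 42 genes 30 were above untreated as deposited, where 6138 of all 13594 genes were. The number was 31 after cyclic loess, 34 with the shift on all controls and 17 with the shift without bioC. The median of all genes in these 4 settings was -0.06, 0.04, 0.60 and -0.62. With the shift without bioC 13 of the 42 genes changed sign, among them ACTR3, ARPC1A, ARPC2, ARPC4, CFL1, GSN, LCP1 and MYH9. With the shift on all controls WASF2, CYFIP1, CORO1C and EZR did. No listed gene that was 2-fold or more from untreated at 72 h changed sign under these scalings. The shifts at 72 h, 0.66 and -0.56, are smaller than 2-fold and could not turn such a gene. Only the cyclic loess could have done so. ARPC1B, WIPF1, NCKAP1L, CYFIP2, EVL, TMSB10, MYO1F and VIM were called in the same direction under all 4 scalings.

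**Figure D5:**
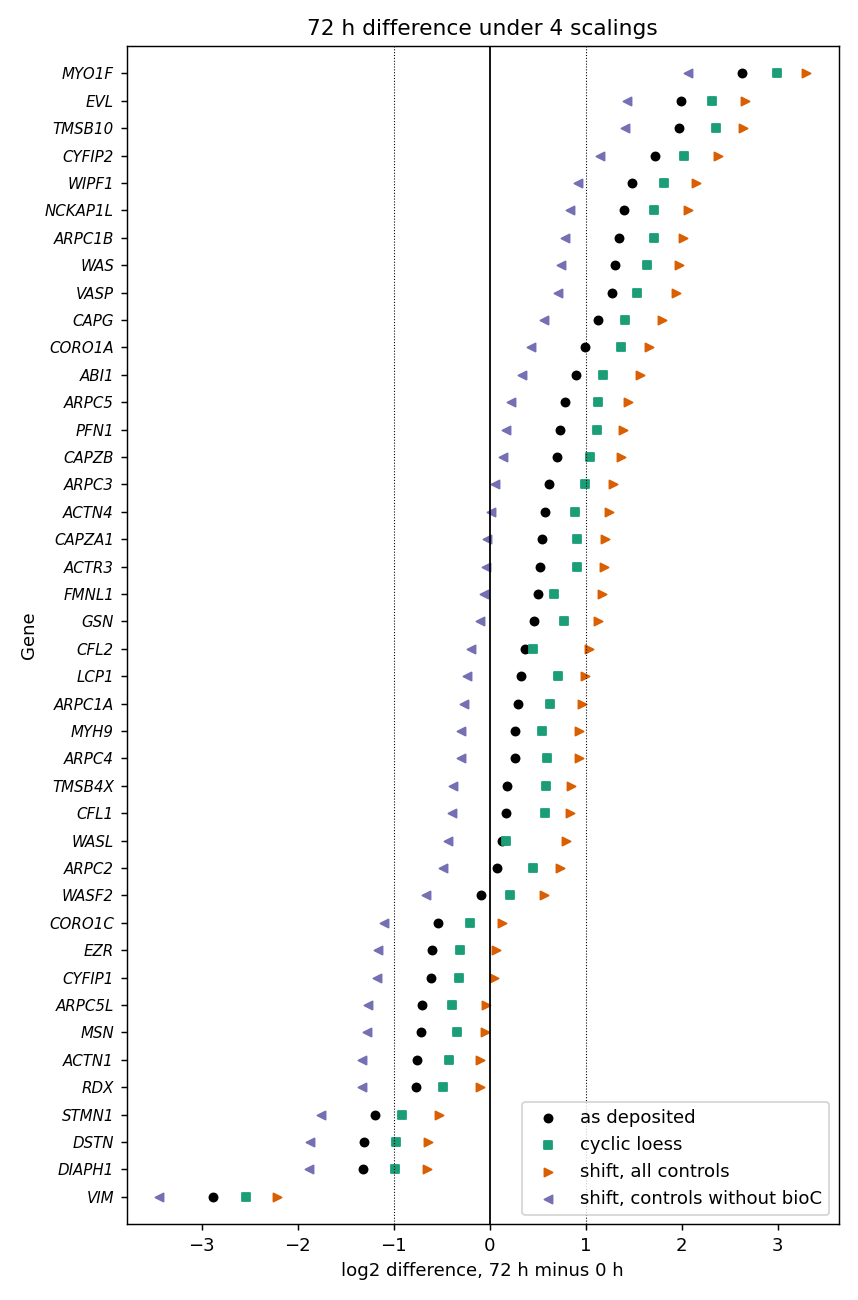
Difference between the 72 h and the untreated array (log2) for each of the 42 genes as deposited (circles), after cyclic loess (squares) and with shifts to equal spiked controls with and without bioC (triangles), with dotted lines at 2-fold. MYO1F (2.63 as deposited) and VIM (-2.88) stay far from 0 under all 4, while 13 genes in the middle cross 0 with the shift without bioC.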

How the data were processed

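Values are log2 probe set summaries as deposited by the authors, with RMA named in the submitters' processing notes. No version, software or genome build is named in the labels or notes used here. Of 54675 probe sets, 41097 had 1 gene in the platform annotation, 1801 several and 11777 none. Control probe sets were left out. For 41037 of the 41091 probe sets used, the symbol was looked up through the Entrez identifier in GRCh38.p14, used for names. Each gene took its probe set with the highest mean, and 13594 of 19775 genes reached the filter of 3.66. Trends over time order come from limma 3.58.1 (R 4.3.3, eBayes with an intensity trend), and the fit was tested on simulated data. It recovered fewer of the small simulated slopes than of the large ones, so a missing call does not show that a gene stayed level. With 1 array per time, the p-values of the fit measure only the scatter of single arrays around a line. Probe sets ending in _s_at or _x_at can read related transcripts, TMSB4X among them. The genes, lists and pairs were chosen with earlier results of these data known. Every listed gene is named, with 6 values where it was called, 2-fold from untreated or paired, and the other lists by their 4 largest 72 h differences. Some of the listed results are not reported here. Alternatives were scaling, probe set choice, filter, fold, baseline, time scale, the bioC covariate and leaving out arrays.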

Additional observations from a re-analysis of the deposited data

How the results depend on the processing

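No paired analysis was possible because each time has 1 array. The genes with a rising trend numbered 14 as reported, 7 with the shift on all controls, 8 with the shift without bioC and 5 within the 4, 24, 48 and 72 h arrays, and from 9 to 14 with 1 array left out. Over all genes the rising share was 8.33% as reported and 7.64%, 5.41% and 2.2% in these fits. The genes with a falling trend numbered 4, then 1, 11 and 1 in the same fits, where 9.86%, then 0.353%, 24% and 0.942% of all genes fell, and from 1 to 4 with 1 array left out. Listed genes 2-fold or more higher at 72 h were 10, 22 with the shift on all controls and 4 without bioC. The count was 16 and 4 at fold thresholds of 1.5 and 3. Of all 13594 genes, 1479 were higher as reported, 3229 with the shift on all controls and 908 without bioC. Listed genes 2-fold or more lower at 72 h were 4, 1 after cyclic loess, and 1 and 11 with these shifts. The count was 2 with the mean of all probe sets, and 10 and 1 at thresholds of 1.5 and 3. Of all genes, 1656 were lower as reported, 1199 after cyclic loess, and 496 and 3848 with these shifts. Counts over all genes at the other thresholds and with the mean of all probe sets are not given. The median 72 h difference of the listed genes was 0.42, and 0.69 after cyclic loess. It was 1.08 with the shift on all controls, -0.15 without bioC and 0.30 with the mean of all probe sets. The shifts add 1 constant per array, from the median of all controls or the mean of those without bioC. For other settings the cause was not tested. The slope of MSN, -0.13 as reported, was 0.015 with the shift on all controls. Other filters, baselines, time scales and the fit without an intensity trend kept these counts of listed genes within 1.5 times. Counted once per gene and alternative setting, 66 slopes lost and 23 gained a call, 1 called slope reversed, and 623 kept the call or its absence. With no replicates, a moved median means a move of 0.1 or more.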
